A study of Homo sapiens with 8 samples.

Results

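The comparison was between 2 expression profiles found among libraries of HepG2 and Huh7, established human liver cancer lines that the labels call hepatocellular carcinoma (HCC) cells. The members were chosen by measured values of the same libraries. A library with MAGEA4 at 100 FPKM or more was called MAGEA4-high, and a library with KRT19 at 100 FPKM or more was called KRT19-high. FPKM is the number of fragments per kilobase of transcript after scaling to the size of the library, so levels could be compared between genes per length. Of 8 libraries, 2 were MAGEA4-high, 5 were KRT19-high and 1 was neither.

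The study had sequenced polyadenylated RNA from WT (parental, sorafenib-sensitive control) and SR (sorafenib-resistant) cells of each line, with 2 libraries per group. Sorafenib is a multikinase inhibitor, and SR cells had been obtained by growth in a concentration gradient of the drug. Each SR group is thus a selected population of a line, not an independent line, and the labels do not say whether replicates came from separate cultures. P-values below measure only the spread between these libraries, which may be technical. In the KRT19-high profile this spread also covers libraries labelled as different lines. All libraries carry the same batch label.

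The MAGEA4-high profile held Huh7 WT replicate 1 and Huh7 SR replicate 1. The KRT19-high profile held both HepG2 WT libraries, replicate 1 of HepG2 SR, and replicate 2 of each Huh7 group, WT before SR. Values are given in these orders throughout. The libraries labelled Huh7 therefore fell on both sides, replicate 1 of each status on one and replicate 2 on the other, whereas no library labelled HepG2 was MAGEA4-high. Whether each label matches the cells of its library was not tested, and a mix-up of samples cannot be told apart from a difference between replicates, so line and WT or SR status are used only as labelled. HepG2 SR replicate 2 met neither criterion and is shown only beside the profiles. Each profile contained WT and SR cells, so the profile and the SR status were not confounded.

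MAGEA4 encodes a cancer-testis antigen of the X chromosome, silent in most adult tissues. KRT19 encodes a keratin of bile duct and other simple epithelia. In the 2 MAGEA4-high libraries MAGEA4 was at 237 and 346 FPKM, and in every other library it was listed at 0. KRT19 was at 760, 279, 255, 155 and 178 FPKM in the KRT19-high libraries and at 1.78 and 2.37 FPKM in the MAGEA4-high libraries. No library lay near either threshold, the nearest value within being 155 FPKM and the nearest outside 2.37 FPKM. The library that met neither criterion had MAGEA4 at 0 and KRT19 at 0.179 FPKM.

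Hepatocytes secrete most plasma proteins, including albumin, fibrinogen, apolipoproteins and complement. They do so under a network of transcription factors that includes HNF4A, FOXA2 and CEBPA. Lines from HCC keep parts of this program and lose others. They also differ in the pathways commonly altered in this cancer, among which are WNT/β-catenin signalling and the p53 response.

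The regulatory sequences shown first are those of 4 genes on which the comparison turns. Each is the run of 250 bases directly before the annotated start, 5′ to 3′ on the gene's strand, from RefSeq on GRCh38.p14. Gene positions given below come from GENCODE 29, whose starts can differ, so a window can overlap such a position. The metal-binding protein gene MT2A (chr16:56608334-56608583, + strand) stands for the metallothioneins. Capitals mark the core of the metal response element, searched on both strands as TGCACNC, with 5 matches, and TGCGCNC, with 2 matches.
MT2A: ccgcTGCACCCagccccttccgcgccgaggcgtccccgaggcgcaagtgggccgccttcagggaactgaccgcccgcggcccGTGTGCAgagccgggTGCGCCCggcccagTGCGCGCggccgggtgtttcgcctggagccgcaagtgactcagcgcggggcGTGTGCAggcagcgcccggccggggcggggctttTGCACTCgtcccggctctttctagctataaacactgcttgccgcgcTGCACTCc

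The 3 tested metallothioneins that the promoter table holds (MT1H, MT1X and MT2A, of 8 tested) each had both forms. Of all 27305 promoters, 9.73% held TGCACNC and 16.9% held TGCGCNC in the same window. The albumin gene ALB (chr4:73404037-73404286, + strand) stands for the secreted liver proteins. Capitals mark GTTAAT, a short motif of liver promoters, with 1 match on either strand.
ALB: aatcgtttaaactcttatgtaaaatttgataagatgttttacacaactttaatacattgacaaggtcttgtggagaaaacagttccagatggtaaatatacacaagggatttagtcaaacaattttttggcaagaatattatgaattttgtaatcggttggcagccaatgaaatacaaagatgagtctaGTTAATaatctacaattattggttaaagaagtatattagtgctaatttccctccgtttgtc

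GTTAAT was present in 6 of the 21 secreted-protein promoters that the table holds and in 6.22% of all promoters. The 6 were ALB, APOH, F2, FGA, FGB and SERPINA6, genes that lie on both sides of the comparison below. The chemokine gene CXCL1 (chr4:73869143-73869392, + strand) stands for a cluster of neighbouring chemokine genes. Capitals mark a 10-base form of the site bound by NF-κB, searched without mismatches.
CXCL1: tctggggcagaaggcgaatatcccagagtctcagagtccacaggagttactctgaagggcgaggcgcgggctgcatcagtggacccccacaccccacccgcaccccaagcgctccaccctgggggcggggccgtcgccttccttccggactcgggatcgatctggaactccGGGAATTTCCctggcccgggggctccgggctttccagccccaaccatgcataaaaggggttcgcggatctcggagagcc

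This site was in 5 of 6 chemokine promoters of the cluster (CXCL1, CXCL2, CXCL3, CXCL5 and CXCL6) and in 0.157% of all promoters, on either strand. The exact letters were not in the CXCL8 window. The glutathione transferase gene GSTP1 (chr11:67583562-67583811, + strand) had the largest difference of all. Capitals mark its 28 CG dinucleotides, where DNA can be methylated, and 74.8% of its bases were G or C. DNA methylation was not measured here.
GSTP1: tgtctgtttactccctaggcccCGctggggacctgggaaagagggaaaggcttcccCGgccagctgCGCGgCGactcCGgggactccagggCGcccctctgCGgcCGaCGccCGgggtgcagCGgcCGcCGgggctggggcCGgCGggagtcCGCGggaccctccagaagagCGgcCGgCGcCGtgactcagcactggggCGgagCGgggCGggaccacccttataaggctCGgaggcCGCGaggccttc

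The motifs were chosen after the expression values were seen. A match is a description of the letters and says nothing about binding.

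The files give no read counts, and no step of single reads could be read from the low values, so depth is unknown and no counting interval is given. Between 27188 and 38276 genes were above 0 per library, and between 12829 and 13386 were at 1 FPKM or more. HepG2 WT replicate 2 had the most genes above 0, and the others had at most 29071. Over 14081 autosomal genes with at least 1 FPKM in at least 2 libraries, log2(FPKM + 1) correlated between the MAGEA4-high libraries at r = 0.963. Within the KRT19-high profile r was 0.910 to 0.977, and between the profiles it was 0.730 to 0.785. Huh7 WT replicate 2 had the lowest values within its profile, at 0.910 to 0.914, against 0.943 to 0.977 among the other KRT19-high libraries. The library outside the profiles, HepG2 SR replicate 2, correlated with the MAGEA4-high libraries at 0.816 to 0.848 and with the KRT19-high libraries at 0.767 to 0.814. These correlations are across genes, which are not independent replicates.

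Because the libraries were grouped by their own expression, no test was made between the profiles for any gene. A gene is called separated where no library of one profile overlapped any of the other and the mean log2(FPKM + 1) differed by at least 1. Differences below are MAGEA4-high minus KRT19-high on this log2(FPKM + 1) scale, which understates the change of low genes. The pooled SD is the spread between libraries of the same profile on the same scale. Of the genes tested, 1626 were separated and higher in the MAGEA4-high profile (11.5%) and 1865 were separated and lower (13.2%), KRT19 itself included. The median difference over all genes was -0.01. These shares are fixed by how the libraries were grouped, and nothing is read from them. They are given as the background for the gene lists.

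The scatter of the profile means shows the extent of the contrast. The difference was at least 4 for 71 separated genes that were higher and 135 that were lower, and at least 6 for 14 and 21. The Huh7-labelled libraries were also taken alone, replicate 1 against replicate 2 within the same status. With a mean difference of at least 1 and the same sign in both statuses, 1859 genes were higher and 2029 lower. These held 93.2% of the separated higher genes and 88.9% of the separated lower genes. These libraries are among the 7 already grouped, so the overlap follows largely from the grouping and nothing is read from it.

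**Figure D1:**
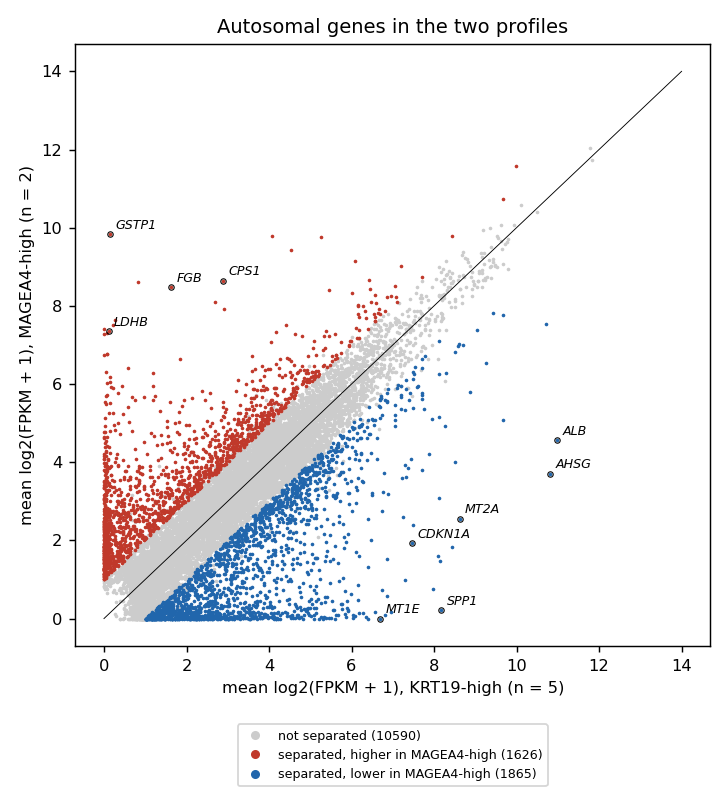
Mean log2(FPKM + 1) of each of 14081 autosomal genes in the KRT19-high libraries (x axis, n = 5) and the MAGEA4-high libraries (y axis, n = 2). Each point is a gene, red for the 1626 separated and higher and blue for the 1865 separated and lower in MAGEA4-high, and the line marks equal means. GSTP1, LDHB and FGB stand far above the line, and SPP1, MT1E, AHSG and ALB far below it.

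Liver identity was divided between the profiles rather than held by one. Albumin, fetuin and most apolipoproteins and complement factors were higher in the KRT19-high libraries, while the fibrinogen chains and several enzymes of nitrogen metabolism were higher in the MAGEA4-high libraries. The ranges of the liver transcription factors HNF4A, FOXA2 and CEBPA overlapped. Of 30 secreted liver proteins, 27 were tested, of which 9 were separated and higher (33.3%) and 12 separated and lower (44.4%), with a median difference of -1.56.

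ALB, the main plasma protein, was at 12 and 42.3 FPKM in the MAGEA4-high libraries. It was at 2139, 3157, 2867, 604 and 2891 FPKM in the KRT19-high libraries, a difference of -6.42 (pooled SD 1.05). Huh7 WT replicate 2 was the lowest of the KRT19-high libraries and still lay above both MAGEA4-high libraries. AHSG, which encodes fetuin-A, was at 4.61 and 29.5 FPKM against 1861, 2121, 2524, 663 and 2919 FPKM (-7.11, pooled SD 1.08). ITIH3, an inter-alpha-trypsin inhibitor heavy chain, was listed at 0 in both MAGEA4-high libraries and was at 35.5, 70.9, 50.3, 21.1 and 86.4 FPKM in the KRT19-high libraries. SERPIND1, heparin cofactor II, was at 0.330 and 0.439 FPKM against 95.8, 116, 112, 9.91 and 134 FPKM. In HepG2 SR replicate 2, ALB was at 4713 FPKM and SERPIND1 at 137 FPKM, but ITIH3 was at 0.393 FPKM and AHSG at 175 FPKM. That library matched neither profile over these genes.

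The fibrinogen genes went the other way. FGB, the beta chain, was at 380 and 327 FPKM in the MAGEA4-high libraries and at 2.40, 4.51, 1.69, 0.386 and 2.95 FPKM in the KRT19-high libraries (6.84, pooled SD 0.67). FGA was at 594 and 805 FPKM against 56.5, 54.7, 25.4, 0.702 and 46.0 FPKM, and FGG was at 1047 and 730 FPKM against 59.6, 126, 45.2, 3.20 and 53.9 FPKM. All 3 chains were separated, and Huh7 WT replicate 2 had the lowest level of each. Levels in HepG2 SR replicate 2 were 1153, 128 and 798 FPKM for FGA, FGB and FGG, on the MAGEA4-high side.

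Among 27 liver transcription factors, all of which were tested, 8 were separated and higher (29.6%) and 5 were separated and lower (18.5%), with a median difference of 0.03 that became -0.33 without Huh7 SR replicate 1. HNF4A was at 32.2 and 55.7 FPKM in the MAGEA4-high libraries and at 68.5, 37.1, 65.4, 22.2 and 50.2 FPKM in the KRT19-high libraries. FOXA2 was at 16 and 16.5 FPKM against 18.9, 16.3, 17.2, 23.8 and 27.4 FPKM. The ranges of both genes overlapped, as did those of CEBPA (-0.07). The CEBPA value rests on MAGEA4-high libraries that lie far apart, at 12 and 42.9 FPKM, and it was 0.81 without Huh7 WT replicate 1 and -0.95 if Huh7 SR replicate 1 was left out. Among nuclear receptors that respond to bile acids and drugs, NR1I3, the constitutive androstane receptor, overlapped at 0.180 and 1.21 FPKM against 0.263 to 0.908 FPKM, and others were lower. NR0B2, the repressor SHP, was at 1.79 and 3.64 FPKM against 55.4, 44.0, 67.3, 34.1 and 44.2 FPKM (-3.76, pooled SD 0.40). NR1I2, the pregnane X receptor, was at 0.157 and 0.0439 FPKM against 12.4, 13.7, 8.03, 10.8 and 8.08 FPKM (-3.37, pooled SD 0.29). Their partner RXRA and the bile acid receptor NR1H4 were also separated and lower, by differences of -1.28 and -1.73. ONECUT1 (2.32), CREB3L3 (1.78) and ATF5 (1.66) were separated and higher.

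**Figure D2:**
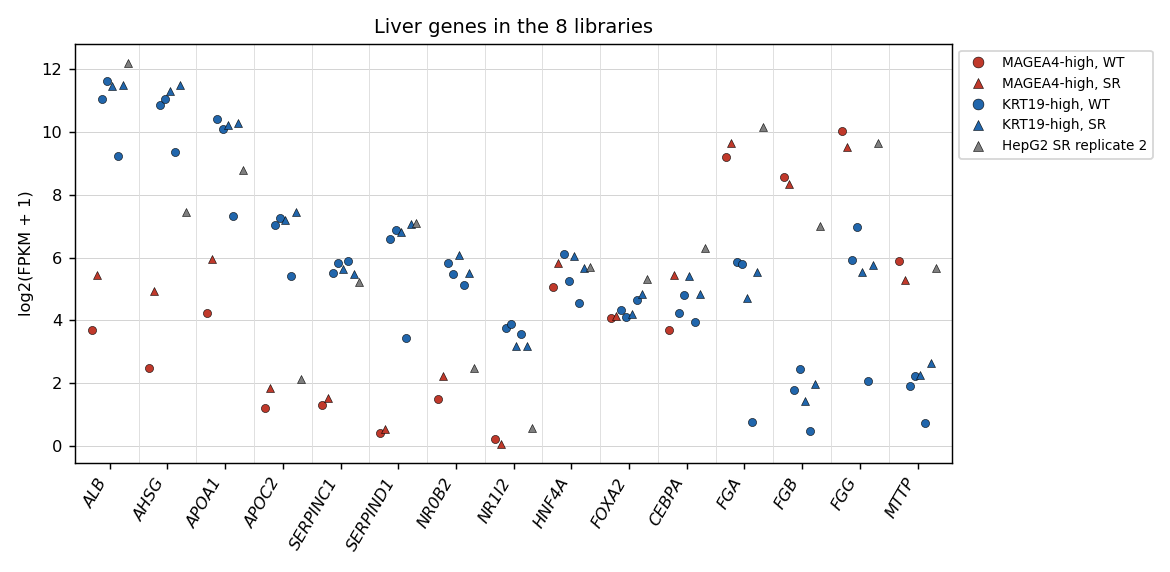
Expression of 15 liver genes as log2(FPKM + 1) (y axis) in the 8 libraries. Each point is a library, circles for WT and triangles for SR, red for MAGEA4-high, blue for KRT19-high and grey for HepG2 SR replicate 2. The profiles lie apart at ALB, AHSG and the fibrinogen genes and overlap at HNF4A, FOXA2 and CEBPA.

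Lipoprotein genes were mostly lower in the MAGEA4-high libraries. Of 19 tested, 11 were separated and lower (57.9%) and 2 were separated and higher (10.5%), with a median difference of -1.88. APOA1, the main protein of high-density lipoprotein, was at 17.7 and 60.7 FPKM against 1368, 1107, 1195, 158 and 1240 FPKM (-4.58, pooled SD 1.30). APOC2, the activator of lipoprotein lipase, was at 1.29 and 2.59 FPKM against 130, 153, 145, 41.5 and 176 FPKM. APOB, the structural protein of very-low-density lipoprotein, overlapped at 119 and 162 FPKM against 149, 157, 264, 50.9 and 201 FPKM. MTTP, which loads lipid onto APOB, was higher at 57.7 and 38.1 FPKM against 2.72, 3.72, 3.73, 0.669 and 5.28 FPKM.

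Of 29 tested complement and coagulation genes, 15 were separated and lower (51.7%) and 5 separated and higher (17.2%), with a median of -1.20. With a filter of 0.1 FPKM this median was -0.64, and with no filter -0.44. C4A and C4B, the near-identical genes for complement C4, were each under 0.3 FPKM in both MAGEA4-high libraries. They lay between 41.1 and 86.6 FPKM in the KRT19-high libraries. How reads were divided between these copies is uncertain. PROC, the anticoagulant protein C, was at 1.44 and 2.78 FPKM against 58.9, 72.6, 80.9, 66.7 and 79.5 FPKM, and SERPINC1, antithrombin, was at 1.47 and 1.87 FPKM against 44.5, 56.3, 48.8, 57.9 and 43.6 FPKM. Those ranges were narrow within each profile. F12, coagulation factor XII, was higher at 19.2 and 54.2 FPKM against 1.90, 2.03, 1.26, 2.20 and 2.15 FPKM, and overlaps GRK6 on the other strand. SERPING1, the C1 inhibitor, was higher at 17.5 and 17.6 FPKM against at most 2.13 FPKM.

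Acute-phase genes, induced in liver by interleukin 6 and related signals, split in the same way, 8 of 13 tested being separated and lower (61.5%) and 4 higher (30.8%), with a median of -1.93. The 4 that were higher were the fibrinogen chains and CP. SERPINA3, antichymotrypsin, was at 0.0856 and 0.0402 FPKM against 27.6, 115, 91.2, 13.9 and 266 FPKM. HP, haptoglobin, was at 0 and 0.0290 FPKM against 6.57, 60.5, 47.9, 0.890 and 42.8 FPKM, with Huh7 WT replicate 2 close to the MAGEA4-high libraries. These genes do not all serve the same function, and SERPINA3 and fibrinogen differed in opposite directions within the list.

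In bile acid handling, 5 of 10 tested genes were separated and lower (50%) and 0 higher, with a median of -1.0. The median was -0.30 with a filter of 0.1 FPKM and -0.08 with no filter, so it depended on the filter. CYP27A1, the mitochondrial sterol 27-hydroxylase of the acidic pathway, was at 0.0598 and 0 FPKM against 58.2, 71.6, 86.4, 25.2 and 65.7 FPKM. ABCC3, a basolateral bile salt and conjugate exporter, was at 0.876 and 0.888 FPKM against 32.9, 43.2, 51.2, 33.7 and 63.6 FPKM. In HepG2 SR replicate 2, CYP27A1 was at 25.2 FPKM, the level of the lowest KRT19-high library, and ABCC3 was at 7.36 FPKM, between the profiles.

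Drug-metabolizing enzymes went in both directions. Of 37 tested, 14 were separated and higher (37.8%) and 11 separated and lower (29.7%), with a median of 0.62. With a filter of 0.1 FPKM this median was 0.17, and with no filter 0.11. GSTP1, a glutathione transferase that is low in normal hepatocytes, was at 938 and 893 FPKM in the MAGEA4-high libraries. In the KRT19-high libraries it was at 0.117, 0.132, 0.0350, 0.148 and 0.0669 FPKM (9.70, pooled SD 0.06), and in HepG2 SR replicate 2 it was at 775 FPKM. No gene had a larger difference. In GENCODE 29 the gene lies at chr11:67583595-67586656, so that start falls inside the promoter window printed above. UGT1A1, the bilirubin glucuronosyltransferase, was at 24.2 and 86.2 FPKM against 4.5, 0.848, 2.67, 0.284 and 4.23 FPKM. Its exons are partly shared with other UGT1A genes, so the division of reads is uncertain. Lower were SULT2A1, the steroid sulfotransferase, at 0 and 0.0543 FPKM against 22.9, 36.4, 117, 13.4 and 69.8 FPKM, and CES1, the liver carboxylesterase, at 0.0614 and 0.0783 FPKM against 27.5, 29.4, 27.7, 17.7 and 22.2 FPKM.

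Lineage markers followed the choice of KRT19 only in part. KRT8 and KRT18, the keratin pair of hepatocytes, overlapped between the profiles (-0.52 and 0.39), as did CDH1 (0.18), the epithelial cadherin. Of 30 tested epithelial junction and surface genes, 11 were separated and lower (36.7%) and 5 higher (16.7%), with a median of -0.80. CLDN4, a tight junction claudin, was at 0.322 and 0.437 FPKM against 58.3, 83.6, 45.9, 76.7 and 38.9 FPKM. EPCAM, an adhesion molecule of liver progenitors, was at 7.03 and 9.30 FPKM against 95.3, 77.1, 147, 132 and 157 FPKM. The protease inhibitors SPINT1 and SPINT2 were exchanged, SPINT1 being at 0.0896 and 0.20 FPKM against 19.6 to 42.8 FPKM and SPINT2 at 48.9 and 50.2 FPKM against 0.210 to 1.51 FPKM.

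Biliary and progenitor genes also went both ways, with 7 of 16 tested separated and higher (43.8%) and 5 lower (31.2%) and a median of 0.19 (0.10 without Huh7 WT replicate 1, 0.36 if Huh7 SR replicate 1 was left out). SPP1, osteopontin, was at 0.0236 and 0.299 FPKM against 179, 183, 823, 121 and 606 FPKM (-7.97, pooled SD 1.09), the largest of the negative differences among protein-coding genes at 10 FPKM or more. SOX9, a bile duct transcription factor, was at 6.16 and 3.76 FPKM against 48.3, 35.8, 57.6, 15.6 and 78.4 FPKM. CD24, a surface glycoprotein of progenitor cells, was higher at 284 and 266 FPKM against 3.67, 9.71, 4.55, 5.76 and 5.14 FPKM, and was at 325 FPKM in HepG2 SR replicate 2.

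Of 26 tested mesenchymal genes, 7 were separated and higher (26.9%) and 9 lower (34.6%), with a median of -0.17 that became -0.09 without Huh7 WT replicate 2. VIM, the intermediate filament of mesenchymal cells, was at 7.02 and 3.30 FPKM against 0.309, 0.777, 0.211, 0.802 and 0.736 FPKM. It was separated, but at levels far below the 536 FPKM of HepG2 SR replicate 2. ITGA5, a fibronectin receptor subunit, was higher at 86.4 and 67.3 FPKM against at most 2.85 FPKM. FN1, fibronectin, was lower at 246 and 190 FPKM against 1140, 1026, 925, 352 and 934 FPKM. CDH2 and ZEB1 overlapped. The genes of this list thus lay on both sides.

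Markers of other cell types were checked in the same libraries. Of 9 endothelial markers, 7 were under 1 FPKM in all 8 libraries, as were all 6 lung markers. The endothelial marker tested, PECAM1, was separated and higher at 4.28 and 2.98 FPKM against at most 1.41 FPKM. The leukocyte markers PTPRC and CD3E were at 0 in both MAGEA4-high libraries and at most 0.0415 FPKM in the KRT19-high libraries. Of the 8 leukocyte genes tested, 1 was higher (12.5%) and 3 lower (37.5%). LCP1, an actin-bundling protein, was at 40.8 and 62.3 FPKM against 1.26, 1.09, 0.879, 2.93 and 1.01 FPKM, and CD74, the invariant chain, was at 0.252 and 0.15 FPKM against 35.1, 50.3, 36.9, 18.5 and 39.2 FPKM. CD68 (-1.41) and CORO1A (-1.66) were the others that were lower. The whole leukocyte list summed to 105 to 150 FPKM in the MAGEA4-high and 99.8 to 1110 FPKM in the KRT19-high libraries, largely through LYZ, lysozyme, at up to 1058 FPKM. The stellate list summed to 1.78 to 3.24 FPKM and 26.0 to 65.1 FPKM, mostly ACTA2, smooth muscle actin, which was at 0.0220 and 0 FPKM against 57.6, 57.4, 40.5, 24.9 and 42.6 FPKM. ACTA2 overlaps FAS on the other strand, and strand use in the counting is not stated. Of the remaining marker lists, 3 of 5 tested intestinal genes were higher (60%), among them GUCY2C, and 3 of 3 neural genes were lower, ENO2, NES and TUBB3. Squamous markers had 2 of 3 lower, breast and prostate markers 2 of 3 higher and 1 lower, and renal and melanocyte markers 0 of 2 each, while 9 of 10 pluripotent markers were under 1 FPKM throughout. Some genes of these lists, KRT20 and ANKRD30A among them, passed the filter only through the profile where they were high. Nothing is read from these shares. The part of these cell types in the results was not tested. In bulk RNA, a smaller share of cells expressing a gene and less RNA per cell cannot be told apart.

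Oncofetal genes, active in fetal liver and again in HCC, were divided, with 4 of 15 tested higher (26.7%) and 4 lower (26.7%) and a median of -0.61. AFP, alpha-fetoprotein, was at 1.07 and 2.55 FPKM against 18.2, 35.8, 25.3, 2.30 and 21.8 FPKM. These ranges touched, since Huh7 WT replicate 2 lay below the upper MAGEA4-high library, so the gene was not counted as separated. AFP was at 1100 FPKM in HepG2 SR replicate 2. LIN28B (45.0 and 35.7 FPKM against 10.4 to 12.4 FPKM) and SALL4 (6.22 and 5.05 FPKM against 0.139 to 0.696 FPKM), regulators of fetal and stem cells, were higher.

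Imprinted genes, expressed from a single parental copy, included several at opposite extremes, although the list as a whole had a median of -0.39 (-0.67 without Huh7 WT replicate 1), with 2 of 18 higher (11.1%) and 5 lower (27.8%). IGF2, the fetal growth factor, was at 0.00932 and 0 FPKM against 177, 103, 41.6, 11.5 and 126 FPKM. H19, the noncoding RNA of the same locus, was at 3.85 and 17.4 FPKM against at most 0.111 FPKM. PEG3, a zinc finger gene, was at 0.0389 and 0.0414 FPKM against 57.9, 75.3, 91.2, 29.3 and 113 FPKM, and DLK1, a NOTCH-related ligand, was at 0.00701 and 0.0102 FPKM against 33.0, 50.4, 62.1, 36.0 and 47.7 FPKM. PLAGL1 was higher at 10.6 and 7.39 FPKM against at most 0.148 FPKM.

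HOX genes encode positional identity. Of 39 listed, 17 were tested, and 12 of these were at 1 FPKM or more in every MAGEA4-high library but only 3 in every KRT19-high library. Many thus passed the filter through the profile where they were high, and nothing is read from the 10 higher (58.8%), the 2 lower (11.8%) or the median of 1.03, which was 0.22 with no filter. HOXC10 was at 9.95 and 10.8 FPKM against at most 0.0330 FPKM, while HOXD1 was listed at 0 in both MAGEA4-high libraries and at 0.803, 2.28, 10.2, 2.02 and 13.5 FPKM in the others. HOXD1 overlaps HAGLR on the other strand. Of 25 autosomal cancer-testis genes listed, 16 were under 1 FPKM in all 8 libraries and 6 were tested. All 6 were at 1 FPKM or more in every MAGEA4-high library and 1 in every KRT19-high library, so the filter largely set the count of 5 higher (83.3%) and 0 lower and the median of 2.25, which was 0.09 with no filter. MAGEA4 belongs to the same class of genes. DDX43, an RNA helicase of the germ line, was at 20 and 17.2 FPKM against at most 0.131 FPKM, and PRAME was at 9.55 and 4.93 FPKM against at most 0.906 FPKM.

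Targets of p53, the transcription factor that answers DNA damage, were mostly lower in the MAGEA4-high libraries. Of 25 genes listed and tested, 19 were separated and lower (76.0%) and 0 were higher, with a median of -1.84. CDKN1A, the cell cycle inhibitor p21, was at 3.91 and 1.96 FPKM against 452, 175, 138, 163 and 92.2 FPKM (-5.53, pooled SD 0.79). FDXR, ferredoxin reductase, was at 4.42 and 5.30 FPKM against 217, 84.8, 85.5, 48.7 and 53.4 FPKM. MDM2, the ligase that degrades p53, was at 19.7 and 12.2 FPKM against 116, 43.7, 60.8, 74.8 and 81.0 FPKM. The groups did not overlap at any of these genes.

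PHLDA3, an inhibitor of AKT, was at 0.325 and 0.0543 FPKM against 43.6, 17.9, 37.7, 31.6 and 20.6 FPKM. FAS, the death receptor, was at 0.0285 and 0.00236 FPKM against 16.5, 5.85, 8.98, 11.4 and 8.59 FPKM. It overlaps ACTA2, at up to 57.6 FPKM, on the other strand, and strand use in the counting is not stated. SPATA18, a mitochondrial quality control gene, was listed at 0 in both MAGEA4-high libraries and lay between 6.40 and 10.8 FPKM in the KRT19-high libraries. The 6 list members that were not separated were SESN2, GDF15, RRM2B, XPC, CCNG1 and TIGAR, with differences from -0.88 to 0.33. HepG2 SR replicate 2 sided with the MAGEA4-high libraries, with CDKN1A at 11.3 FPKM, FAS at 0.0506 FPKM and PHLDA3 and SPATA18 listed at 0.

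Genes induced by WNT/β-catenin signalling were also mostly lower. Of 19 tested, 12 were separated and lower (63.2%) and 2 higher (10.5%), with a median of -1.81. NOTUM, a secreted enzyme that inactivates WNT ligands, was at 0.700 and 0.313 FPKM against 52.3, 112, 183, 79.6 and 228 FPKM (-6.27, pooled SD 0.78). AXIN2, the feedback inhibitor most used as a readout, was at 2.32 and 1.58 FPKM against 51.8, 52.6, 35.5, 18.0 and 29.7 FPKM. NKD1, another inhibitor, was at 0.325 and 0.182 FPKM against 28.7, 30.6, 33.5, 9.65 and 28.0 FPKM. All 3 of these inhibitors were thus separated in the same direction.

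TNFRSF19, a receptor gene, was listed at 0 in both MAGEA4-high libraries and was at 36.2, 46.5, 49.1, 14.2 and 50.3 FPKM in the KRT19-high libraries. DKK1, a WNT antagonist, was at 11.9 and 4.53 FPKM against 427, 792, 439, 30.4 and 353 FPKM. The 2 members that were higher were LGR4, an R-spondin receptor, at 77.3 and 53.9 FPKM against 35.9, 30.0, 26.8, 7.45 and 26.4 FPKM, and LEF1, a transcription factor of the pathway. LEF1 was at 17.1 and 15 FPKM against at most 0.162 FPKM. CCND1 overlapped (-0.26), and so did GLUL (-0.33), a marker of pericentral hepatocytes. CTNNB1 itself, the gene for β-catenin, overlapped at 139 and 81.9 FPKM against 147, 135, 126, 82.2 and 81.0 FPKM. In HepG2 SR replicate 2, NOTUM, AXIN2 and NKD1 were at 0.780, 1.72 and 0.0102 FPKM, on the MAGEA4-high side.

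**Figure D3:**
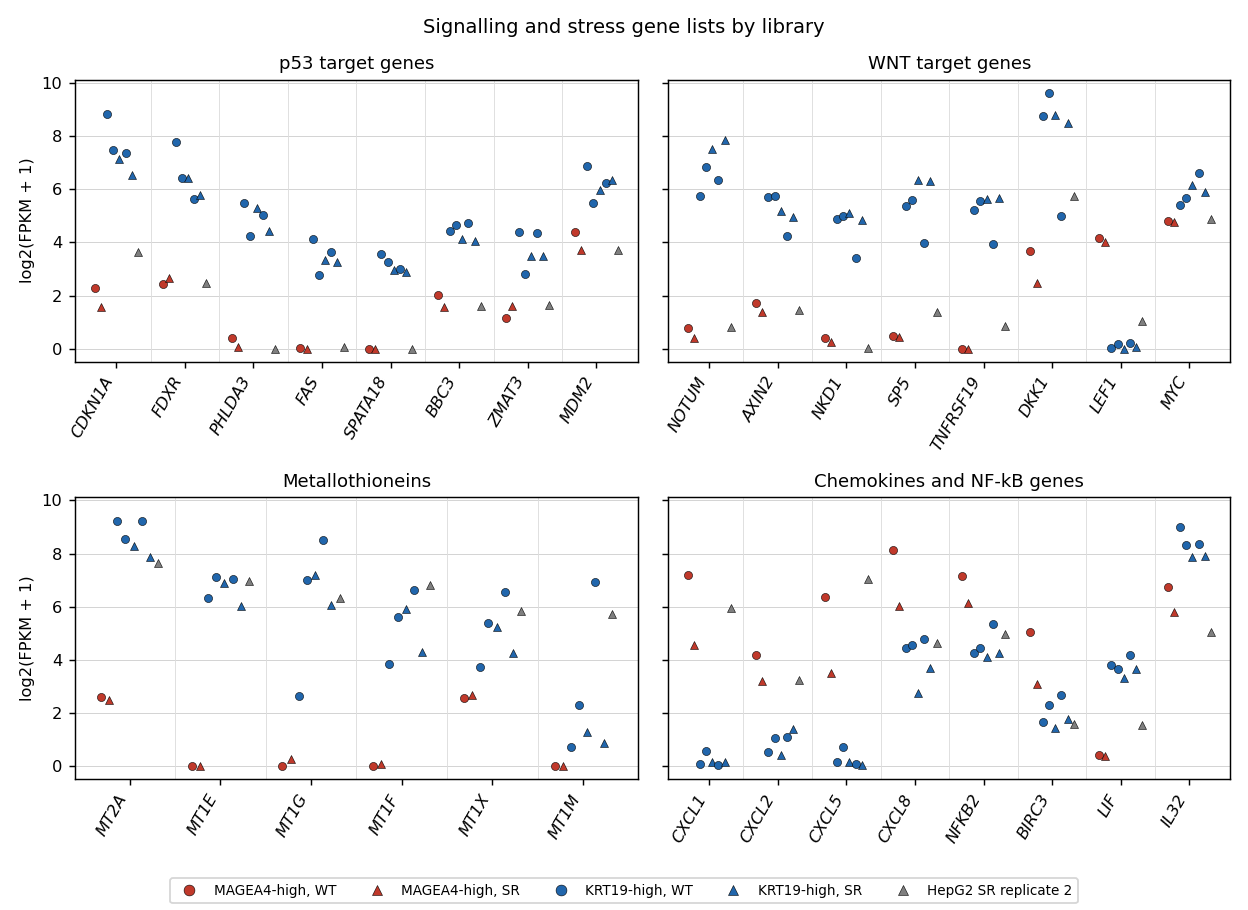
Expression of members of 4 gene lists as log2(FPKM + 1) (y axis) in the 8 libraries, with circles for WT and triangles for SR. Red points are MAGEA4-high, blue points KRT19-high and grey points HepG2 SR replicate 2. The red points lie below the blue ones at every p53 target and metallothionein shown, and above them at LEF1, the CXCL genes, NFKB2 and BIRC3.

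Metallothioneins, small proteins that bind zinc and copper, were lower in 7 of 8 genes tested (87.5%), and 0 were higher, with a median of -3.82. Of these genes, 2 were at 1 FPKM or more in every MAGEA4-high library and 5 in every KRT19-high library. Several thus passed the filter through the profile where they were high, and the median was -2.43 with no filter. MT2A was at 5.09 and 4.65 FPKM against 600, 369, 309, 595 and 231 FPKM (-6.07, pooled SD 0.54). MT1E was listed at 0 in both MAGEA4-high libraries and was at 79.9, 138, 119, 132 and 64.1 FPKM in the KRT19-high libraries. MT1G was at 0 and 0.224 FPKM against 5.31, 127, 147, 366 and 65.3 FPKM, and MT1X at 4.94 and 5.48 FPKM against 12.2, 40.4, 36.4, 92.8 and 18.0 FPKM. The group ranges did not overlap, but HepG2 WT replicate 1 had the lowest MT1G, MT1F, MT1M and MT1X of its profile and Huh7 WT replicate 2 the highest. In HepG2 SR replicate 2, MT1E was at 125 FPKM, on the KRT19-high side. Among the tested genes, MT2A, MT1E, MT1M, MT1A, MT1F and MT1G formed a run of separated neighbours at chr16:56608199-56668065. The run opens at the GENCODE 29 start of MT2A, which lies before the promoter window shown for MT2A. The genes of this run are close paralogs, so the division of reads among them is uncertain.

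The list of NF-κB genes and chemokines, which recruit neutrophils, had a median of 1.05 (0.43 without Huh7 WT replicate 1, 1.85 if Huh7 SR replicate 1 was left out), with 6 of 14 tested higher (42.9%) and 4 lower (28.6%). CXCL1 was at 147 and 22.6 FPKM against 0.0733, 0.486, 0.132, 0.0297 and 0.130 FPKM (5.67, pooled SD 0.86). CXCL8, interleukin 8, was at 282 and 63.7 FPKM against 21.1, 22.7, 5.74, 26.5 and 11.8 FPKM. In both genes Huh7 WT replicate 1 stood above Huh7 SR replicate 1, and with a single library of each status in the profile that difference has no replicate check. CXCL8, CXCL6, CXCL1, CXCL5, CXCL3 and CXCL2 formed a run of 6 separated neighbours among the tested genes at chr4:73740506-74099293, most with the NF-κB letters shown above. Members of the list that encode inhibitors of the pathway were lower. NFKBIA was at 19.5 and 11.5 FPKM against 38.4 to 54.7 FPKM and TNFAIP3 at 14.3 and 3.73 FPKM against 22.6 to 35.1 FPKM. Activity of the pathway was not tested. LIF and IL32 were lower too, so the list was not uniform.

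Interferon and antigen presentation genes had a median of 0.37 (-0.24 without Huh7 WT replicate 1, 0.87 if Huh7 SR replicate 1 was left out), with 5 of 22 tested higher (22.7%) and 3 lower (13.6%), against 11.5% and 13.2% of all genes tested. BST2, tetherin, a member of the list, was lower at 5.79 and 3.57 FPKM against 50.4, 61.7, 76.7, 28.1 and 49.2 FPKM. In the TGF-β and BMP list, 6 of 25 tested were higher (24.0%) and 4 lower (16%), with a median of 0.03 that became -0.20 without Huh7 WT replicate 1 and -0.16 without Huh7 WT replicate 2. FST, follistatin, an activin antagonist, was at 343 and 166 FPKM against 6.25, 9.97, 9.22, 0.653 and 16.2 FPKM. BAMBI, a decoy receptor, was at 96.3 and 70.3 FPKM against 8.71 to 21.6 FPKM.

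Among growth factors, 8 of 14 tested were lower (57.1%) and 2 higher (14.3%), with a median of -1.39. This median depended on the filter, being -0.59 at 0.1 FPKM and -0.06 with no filter. Of the EGFR ligands tested, AREG (1.58) and HBEGF (-0.71) overlapped and the other two were separated in opposite directions, TGFA being at 0.0256 and 0 FPKM against 14, 9.98, 10.3, 13.1 and 10.5 FPKM and EREG at 145 and 19.7 FPKM against at most 0.876 FPKM. EGFR itself was higher at 25.6 and 24.2 FPKM against 2.55, 2.66, 0.595, 1.74 and 1.0 FPKM (3.33, pooled SD 0.47). It was 1 of 2 receptor tyrosine kinases among 21 tested that were higher (9.52%), whereas 9 were lower (42.9%), with a median of -0.40 that became -0.71 without Huh7 WT replicate 1 and -0.84 without Huh7 WT replicate 2. FGFR1 was at 11.3 and 6.88 FPKM against 26.8, 29.5, 34.9, 54.3 and 28.6 FPKM, and EPHA2 was at 18.9 and 12.7 FPKM against 159, 69.7, 61.0, 106 and 52.1 FPKM. Several of these receptors are targets of kinase inhibitors, but sorafenib response was not measured in these libraries.

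Smaller signalling lists were mixed. Of 15 tested NOTCH genes, 3 were higher (20%) and 7 lower (46.7%). JAG1, a NOTCH ligand, was at 7.49 and 8.54 FPKM against 54.3, 35.9, 48.6, 70.6 and 40.7 FPKM. Of 18 YAP targets, 2 were higher (11.1%) and 5 lower (27.8%), and of 16 genes of ERK feedback 1 was higher (6.25%) and 3 lower (18.8%). The higher one was DUSP4, a phosphatase of ERK, at 28.5 and 8.35 FPKM against 0.765, 0.401, 0.107, 0.627 and 0.139 FPKM. Of 14 drug transporters, 2 were higher (14.3%) and 5 lower (35.7%), and ABCG2, an efflux pump, was at 15.2 and 14.9 FPKM against 4.30, 2.28, 3.33, 4.67 and 2.90 FPKM.

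Of 25 tested glycolysis genes, 7 were higher (28.0%) and 4 lower (16%), with a median of 0.08 that became 0.52 without the WT and 0.42 without the SR library of the MAGEA4-high profile. LDHB, the lactate dehydrogenase subunit of oxidative tissue, was at 129 and 204 FPKM against 0, 0.348, 0, 0 and 0.0702 FPKM, and at 0.0398 FPKM in HepG2 SR replicate 2. LDHA overlapped at 93.3 and 172 FPKM against 46.1 to 231 FPKM. SLC16A3, the lactate exporter MCT4, was at 0.835 and 1.11 FPKM against 195, 175, 193, 85.3 and 160 FPKM. It overlaps CSNK1D on the other strand.

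HK2, the hexokinase of many tumors, was at 0.231 and 0.187 FPKM against 28.2, 32.1, 26.3, 42.3 and 39.7 FPKM. PFKM, the muscle form of phosphofructokinase, was higher at 52.8 and 43 FPKM against 0.549, 1.96, 0.419, 0.633 and 0.259 FPKM. The glucose carriers SLC2A1 and SLC2A2 differed in opposite directions. SLC2A1 (GLUT1) was at 11.1 and 11.3 FPKM against 183, 238, 184, 71.4 and 179 FPKM, and SLC2A2 (GLUT2), the carrier of hepatocytes, was at 13 and 19.4 FPKM against 0.433, 1.52, 0.945, 0.0886 and 0.870 FPKM.

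Urea cycle and amino acid genes had a median of 0.02 (0.42 without Huh7 WT replicate 1, -0.25 if Huh7 SR replicate 1 was left out), with 9 of 27 tested higher (33.3%) and 6 lower (22.2%). CPS1, the first enzyme of the urea cycle, was at 405 and 391 FPKM against 6.72, 9.91, 7.10, 3.69 and 5.92 FPKM (5.75, pooled SD 0.39), and at 1.13 FPKM in HepG2 SR replicate 2. ASS1, which makes argininosuccinate, was at 448 and 731 FPKM against 54.9, 71.8, 108, 49.6 and 63.9 FPKM. HPD, an enzyme of tyrosine breakdown, was lower at 4.72 and 5.38 FPKM against 162, 170, 191, 98.7 and 146 FPKM.

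Lipid synthesis had 5 of 19 genes higher (26.3%) and 5 lower (26.3%), with a median of 0.36 that became 0.22 without Huh7 SR replicate 1. ME1, malic enzyme, a source of NADPH, was at 49.3 and 42.4 FPKM against 0, 0.0610, 0, 0 and 0 FPKM, and SCD, the stearoyl-CoA desaturase, was at 441 and 602 FPKM against 73.2, 173, 283, 94.4 and 187 FPKM. FASN, fatty acid synthase, overlapped (0.42). In fatty acid oxidation 3 of 26 were higher (11.5%) and 6 lower (23.1%), with a median of -0.30 that became -0.15 without Huh7 WT replicate 1. ACSL1, which activates fatty acids, was at 2.18 and 1.68 FPKM against 30.6, 40.3, 29.8, 58.2 and 21.9 FPKM, and PDK4, which restrains glucose oxidation, was higher at 13.7 and 8.08 FPKM against at most 0.135 FPKM. Sterol synthesis had 3 of 22 tested higher (13.6%), 0 lower and a median of 0.31 (0.59 without Huh7 WT replicate 1, 0.13 if Huh7 SR replicate 1 was left out). One of the 3 was INSIG1, the sensor that holds sterol synthesis in check, at 8.11 and 23.3 FPKM against at most 0.0285 FPKM.

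The study addressed ferroptosis, an iron-dependent cell death, so iron genes were listed. Of 29 tested, 8 were higher (27.6%) and 5 lower (17.2%), with a median of 0.26 that became -0.05 without Huh7 SR replicate 1. The ferritin chains overlapped, FTH1 being at 1388 and 1327 FPKM against 1545, 1507, 1440, 1747 and 1043 FPKM and FTL at 3480 and 5017 FPKM against 3006 to 4562 FPKM. NCOA4, the receptor that carries ferritin to degradation, was at 30.9 and 35.0 FPKM against 117, 101, 113, 48.4 and 94.3 FPKM (-1.43, pooled SD 0.46). GPX4, the enzyme that detoxifies lipid peroxides, overlapped at 210 and 243 FPKM against 160 to 238 FPKM. CHAC1, a glutathione-degrading enzyme of the stress response, was at 46.6 and 29.5 FPKM against at most 0.134 FPKM. HAMP, hepcidin, the iron hormone of liver, was at 0.0134 and 0.205 FPKM against 6.13, 5.69, 39.2, 18.9 and 52.5 FPKM, and its regulator TFR2 was at 0 and 0.139 FPKM against 13, 13.2, 11.7, 3.64 and 16.7 FPKM. Targets of NRF2, the oxidative stress factor, had 4 of 20 tested higher (20%) and 4 lower (20%), with a median of -0.39 (-0.21 without Huh7 WT replicate 1, -0.63 if Huh7 SR replicate 1 was left out).

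Cell cycle genes had 6 of 30 tested higher (20%) and 1 lower (3.33%), with a median of 0.51. MKI67, the proliferation marker, was at 15.5 and 25.6 FPKM against 4.09, 11.4, 14.8, 3.07 and 10.8 FPKM, so its ranges nearly met. A list of 11 housekeeping genes had a median of 0.52, with 1 higher (9.09%) and 0 lower. The cell cycle median was 1.15 without Huh7 WT replicate 1 and 0.21 if Huh7 SR replicate 1 was left out, and 0.24 without Huh7 WT replicate 2, so it rests on single libraries. The bars of separated members by list show the metallothioneins, p53 targets and WNT targets furthest to the lower side. The long bars of the cancer-testis and HOX genes on the higher side follow largely from the filter. The metallothionein bar also rests in part on genes that passed the filter through the KRT19-high profile.

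**Figure D4:**
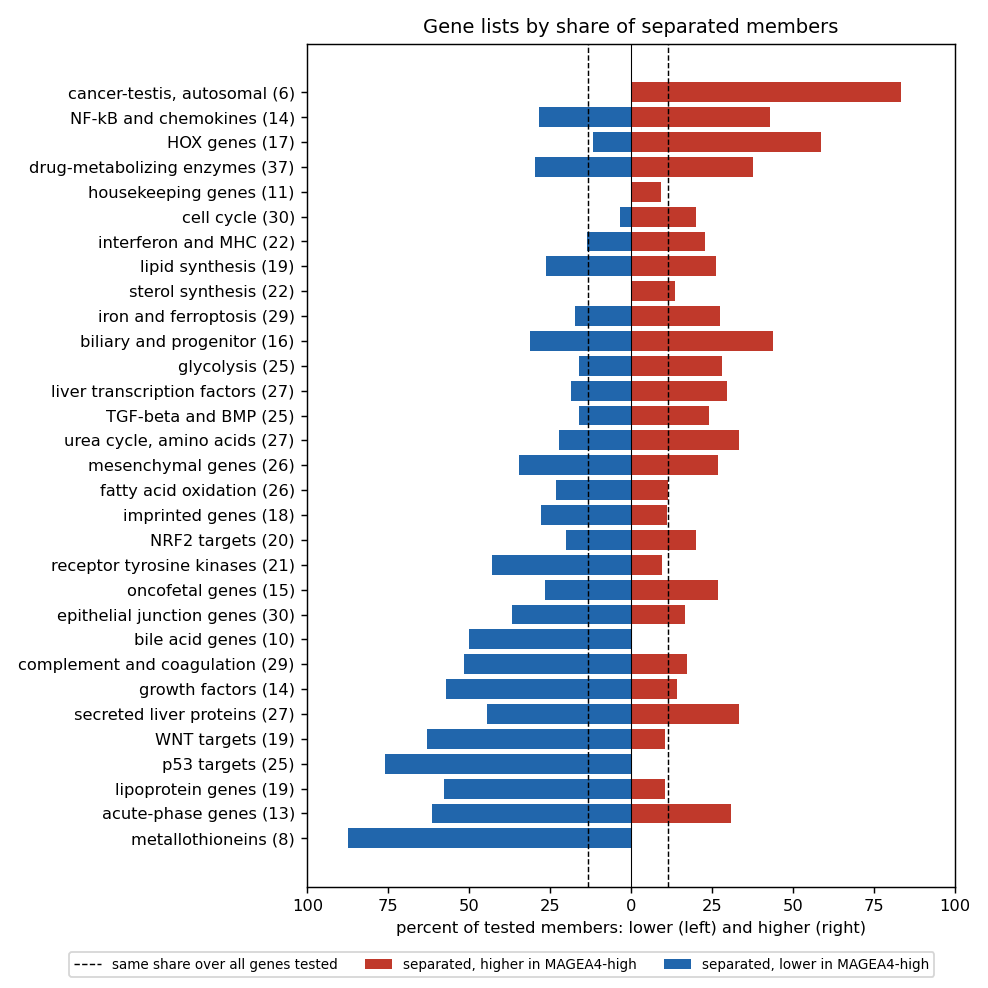
Share of tested members of each of 31 gene lists that were separated, lower in MAGEA4-high to the left (blue) and higher to the right (red), in percent, with the number tested in parentheses. Dashed lines mark the shares over all genes tested, 13.2% lower and 11.5% higher. Lists are ordered by median difference, from the metallothioneins at the bottom to the autosomal cancer-testis genes at the top.

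Genes at 10 FPKM or more in every library of one profile and under 0.1 FPKM in every library of the other were taken as on and off. There were 29 on only in the MAGEA4-high libraries (0.206% of genes tested), 22 of them protein coding, and 36 on only in the KRT19-high libraries (0.256%), 35 of them protein coding. Without Huh7 WT replicate 2 the latter number was 58. The first set held CRH, corticotropin-releasing hormone, at 130 and 217 FPKM and listed at 0 in all KRT19-high libraries. It also held CALB1, a calcium buffer, at 122 and 197 FPKM, and GTSF1, a germ line factor, at 119 and 94.9 FPKM. EID1, a widely expressed cell cycle regulator, was at 72.1 and 86.9 FPKM against at most 0.0867 FPKM, and PLPP2, a lipid phosphatase, at 68.2 and 59.4 FPKM against at most 0.0974 FPKM.

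The second set held CLDN6, a fetal claudin, at 220, 139, 108, 52.7 and 95.4 FPKM against at most 0.0959 FPKM. It also held PGC, a pepsinogen of the stomach, at 60, 130, 183, 16 and 173 FPKM and listed at 0 in the MAGEA4-high libraries. TMEM45B, MT1E, SERPINA3, IGF2, PEG3, CYP27A1 and ITIH3 belonged to it as well. HepG2 SR replicate 2 had 10 of the 29 genes (34.5%) and 9 of the 36 (25%) at 10 FPKM or more, and 8 and 9 under 0.1 FPKM, so it shared parts of both sets. A promoter window was found for 18 of the first set and 24 of the second. It was rich in CpG (at least 0.5 of bases G or C and CpG at least 0.6 of that expected) in 55.6% and 33.3%, against 76.5% of the genes tested that the table holds and 44.9% of all promoters.

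Among other large differences, ANXA1, a calcium-dependent membrane protein, was at 206 and 159 FPKM against at most 0.808 FPKM, and GJA1, connexin 43, was at 192 and 128 FPKM against at most 0.205 FPKM. The adhesion receptor ADGRL2 was at 315 and 123 FPKM against at most 0.345 FPKM, and CD81, a tetraspanin that serves as an entry receptor for hepatitis C virus, was at 70.4 and 60.4 FPKM against at most 0.318 FPKM. On the lower side, S100A6, a calcium-binding protein, was at 0.988 and 0.433 FPKM against 485, 209, 217, 209 and 212 FPKM, and PLA2G2A, a secreted phospholipase, was at 0.138 and 0.0895 FPKM against 68.8, 102, 271, 30.4 and 489 FPKM.

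Differences were not spread evenly over the autosomes. On chromosome 20 the median difference was -0.64 over 407 genes, with 28.7% separated and lower and 3.69% higher. On chromosome 16 it was -0.49 over 734 genes, with 23.7% lower and 3.13% higher. Chromosome 15 had a median of 0.42 over 466 genes, with 20% higher and 8.37% lower, and chromosome 12 had 0.32 over 781 genes, with 15.9% higher and 7.55% lower. The SD of these medians between libraries of a profile was 0.05 to 0.07. HepG2 SR replicate 2 stood below the KRT19-high mean by a median of -0.46 on chromosome 20 and -0.44 on chromosome 16. Across all autosomes, 177 runs of 3 or more neighbouring separated genes of the same direction were found, the longest of 8 genes. Only tested genes were lined up, so neighbours may have untested genes between them. Overlapping gene entries were counted as neighbours and no expected number of runs was computed, so nothing is read from this count. Copy number was not measured here, and its part in these medians was not tested.

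**Figure D5:**
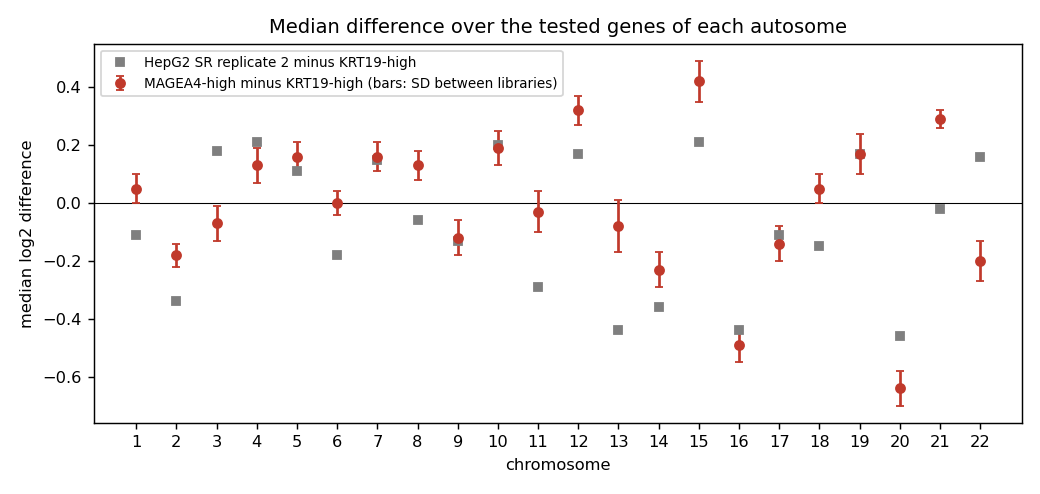
Median difference in log2(FPKM + 1) over the tested genes of each autosome (x axis), for MAGEA4-high minus KRT19-high (red circles, bars showing the SD of the median between libraries of a profile) and for HepG2 SR replicate 2 minus KRT19-high (grey squares). Chromosomes 16 and 20 lie lowest and 12 and 15 highest among the red circles.

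Since each profile held WT and SR libraries, the SR effect was tested with profile as a term. The profile term and the 7 libraries used come from the grouping rule, while the SR and WT status comes from the labels. The labelled line was not a term of this fit. With limma and Benjamini-Hochberg adjustment, 0 of 14081 genes had an adjusted p under 0.05 (0%), while 1343 (9.54%) had an unadjusted p under 0.05. At the thresholds the study used, an unadjusted p under 0.05 and a log2 fold change of at least 0.5, 543 genes were higher and 637 lower in SR. AURKA, a mitotic kinase, had the smallest p. It was at 19.7 FPKM in the WT and 129 FPKM in the SR library of the MAGEA4-high profile. In the KRT19-high profile it was at 10.2, 14.1 and 16.8 FPKM in WT and 92.8 and 59.6 FPKM in SR. The SR libraries of each profile were thus above its WT libraries, in 3 of 3 SR libraries. The log2 difference was 2.47 (SE 0.25), with an adjusted p of 0.121 from limma. AURKA was at 50.5 FPKM in HepG2 SR replicate 2, which was left out of the fit.

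PCLAF, a partner of the replication clamp, was the next protein-coding gene with a higher level in SR (2.09, SE 0.31, limma adjusted p = 0.360). F2RL1, the protease receptor PAR2, was lower (-1.76, SE 0.26), as was GRB10, an adaptor of insulin signalling (-1.42, SE 0.22), both at a limma adjusted p of 0.360. None of these passed the adjusted threshold. The microRNA gene MIR548D1 (1.48, SE 0.20, limma adjusted p = 0.360) had the second smallest p. It overlaps the protein-coding gene ATAD2 on the same strand, which was at up to 34.9 FPKM. The division of reads between them is uncertain.

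Whether the SR effect differed between the profiles was tested as an interaction. The MAGEA4-high profile has 1 WT and 1 SR library, which the model assumes to vary like the others. By limma 0 of 14081 genes had an adjusted p under 0.05 (0%), and 370 (2.63%) had an unadjusted p under 0.05. For AURKA the difference of the effects was 0.27 (SE 0.57), which does not show that they were equal. PTGS2, cyclooxygenase 2, had the smallest p, at 19.2 FPKM in WT and 2.41 FPKM in SR of the MAGEA4-high profile and at most 0.0295 FPKM in the KRT19-high libraries. Its interaction was -2.55. Only the KRT19-high libraries, where the gene was near 0, show its spread in this fit, so its small p is not read as a result.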

How the data were processed

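Polyadenylated RNA was sequenced from 8 libraries made with a NEBNext Ultra kit, 2 per group. The authors deposited FPKM values for 63241 gene identifiers per library, and no counts. The submitters' processing notes name fastp 0.20.0 and the build GRCh38. The aligner, the quantifier, the annotation and the use of strand are not given in the sources used here. Of the identifiers, 5013 were not in GENCODE 29, from which gene positions were taken.

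The profiles were set at 100 FPKM, and 14081 autosomal genes with at least 1 FPKM in at least 2 of the 8 libraries were compared between the profiles as log2(FPKM + 1). No test was made between the profiles. The members and the gene lists (48 lists, 962 genes, 704 tested) were chosen with earlier results of these data known. Named genes were up to 8 separated members of each list with a mean of 5 FPKM or more in the higher profile and members central to the list, the 15 largest differences each way among separated protein-coding genes at 10 FPKM or more, the 15 highest on and off genes each way, the 5 smallest p of the SR test with AURKA, and genes of runs that hold an on or off gene. Other genes named for context were chosen after their values were seen.

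The study had used edgeR with an unadjusted p under 0.05 and a log2 fold change of 0.5. FPKM are not counts, so SR against WT was fitted with limma 3.58.1 (R 4.3.3) on the 7 libraries of the profiles with profile as a term, with Benjamini-Hochberg adjustment. The scripts were tested on simulated data and ran on Python 3.11.15, numpy 2.4.6, pandas 2.3.3 and matplotlib 3.10.9. Alternatives were the pseudocount, the filter, TPM, quantile normalization, thresholds, a replicate block, the labelled line as a further term and each library left out. Genes of the sex chromosomes other than MAGEA4 were not analysed here, and a few genes are not reported here.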

Additional observations from a re-analysis of the deposited data

Results flagged for a closer look

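Among the 5 KRT19-high libraries, 1 library lay far from the other 4 by Dixon's test (critical value 0.71) in 38 of 201 genes named. Chance gives about 1 in 20 groups. Huh7 WT replicate 2 was the distant library in 23 genes. Its values were ALB at 604, SERPIND1 at 9.91, TTR at 1.12, FGA at 0.702, APOA1 at 158, APOC2 at 41.5, NKD1 at 9.65, TNFRSF19 at 14.2, RHBG at 6.60, DKK1 at 30.4 and MT1M at 121 FPKM. The rest were NFKB2 at 39.9, SLC16A3 at 85.3, SLC2A1 at 71.4, MST1 at 214, FN1 at 352, TFR2 at 3.64, AFP at 2.30, F2 at 73.4, MT1H at 10.9, NCOA4 at 48.4, LGR4 at 7.45 and LCP1 at 2.93 FPKM. HepG2 WT replicate 2 was the distant library in 12 genes, mostly near 0, all of them separated and higher in MAGEA4-high. It was also the library with the most genes above 0. Its values were CXCL1 at 0.486, CXCL5 at 0.660, LDHB at 0.348, ME1 at 0.0610, NNMT at 0.0146 and DDX43 at 0.131 FPKM. The rest were PRAME at 0.906, GTSF1 at 0.00671, ADGRL2 at 0.345, ANXA1 at 0.808, GJA1 at 0.205 and PTGS2 at 0.0295 FPKM. For ME1 the other KRT19-high libraries were listed at 0, where any value above 0 is distant by construction. Single distant values were F12 at 1.26 FPKM in HepG2 SR replicate 1, S100A6 at 485 FPKM in HepG2 WT replicate 1 and NFKBIA at 38.4 FPKM in HepG2 WT replicate 1. Huh7 WT replicate 2 was farthest from the median of the 5 in 39.5% of all genes tested, against 8.83% to 20.4% for each of the other libraries. The cause was not tested.

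HepG2 SR replicate 2, which entered neither profile, held 3 genes at 100 FPKM or more that were under 10 FPKM in every other library. VIM was at 536 FPKM, UCHL1, a neural ubiquitin hydrolase, at 251 FPKM and SPINK1, a trypsin inhibitor, at 199 FPKM. AFP was at 1100 FPKM, against at most 35.8 FPKM elsewhere.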

How the results depend on the processing

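No gene was tested between the profiles, so these alternatives show how values shifted, not calls won or lost. At a log2 difference of at least 2, 490 genes were higher and 689 lower. With on set at 5 FPKM, 55 genes were on in MAGEA4-high and 75 in KRT19-high, and with off set under 0.5 FPKM, 63 and 77. With each library left out in turn, 29 to 40 genes were on in MAGEA4-high, the highest without HepG2 WT replicate 2. On in KRT19-high were 36 to 58 genes, the highest without Huh7 WT replicate 2. With a pseudocount of 0.1, the median was -2.88 for lipoprotein genes, -1.21 for bile acid genes, 0.93 for drug-metabolizing enzymes, -2.03 for growth factors, -5.73 for metallothioneins, 3.17 for HOX genes, 4.44 for cancer-testis genes, 0.38 for chromosome 12, 0.50 for chromosome 15, -0.61 for chromosome 16 and -0.76 for chromosome 20. With values rescaled to TPM, the median was -1.13 for bile acid genes, 0.87 for drug-metabolizing enzymes, -1.73 for growth factors, 1.80 for HOX genes, 3.19 for cancer-testis genes, -0.56 for chromosome 16 and -0.71 for chromosome 20. With quantile normalization, the median was 0.38 for chromosome 12 and -0.42 for chromosome 16. With a filter of 0.1 FPKM, the median was -0.64 for complement and coagulation, -0.30 for bile acid genes, 0.17 for drug-metabolizing enzymes, -0.59 for growth factors, -0.02 for NRF2 targets, 0.36 for HOX genes, 0.65 for cancer-testis genes, 0.11 for chromosome 12, 0.13 for chromosome 15, -0.22 for chromosome 16 and -0.27 for chromosome 20. With no filter, the median was -0.44 for complement and coagulation, -0.08 for bile acid genes, 0.11 for drug-metabolizing enzymes, -0.06 for growth factors, -0.02 for receptor tyrosine kinases, 0.41 for NF-κB genes, -2.43 for metallothioneins, 0.03 for iron genes, -0.02 for NRF2 targets, 0.22 for HOX genes, 0.09 for cancer-testis genes, -0.13 for imprinted genes, 0.00 for chromosome 12, 0.00 for chromosome 15, -0.04 for chromosome 16 and -0.05 for chromosome 20. When each library was left out in turn, the median ranged from -0.33 to 0.30 for liver transcription factors, -0.96 to -0.59 for epithelial genes, -0.84 to -0.24 for receptor tyrosine kinases, -0.20 to 0.10 for TGF-β and BMP, 0.43 to 1.85 for NF-κB genes, -0.24 to 0.87 for interferon genes, -0.05 to 0.35 for iron genes, -0.04 to 0.52 for glycolysis, -0.25 to 0.42 for urea cycle and amino acids, 1.03 to 1.08 for HOX genes, 1.96 to 2.47 for cancer-testis genes, -0.67 to -0.16 for imprinted genes, -0.23 to -0.09 for mesenchymal genes, 0.10 to 0.36 for biliary genes, -0.63 to -0.21 for NRF2 targets, 0.22 to 0.43 for lipid synthesis, -0.37 to -0.15 for fatty acid oxidation, 0.13 to 0.59 for sterol synthesis, 0.21 to 1.15 for cell cycle genes and -0.55 to -0.45 for chromosome 16. The signs of the medians for liver transcription factors, TGF-β and BMP, interferon genes, iron genes, glycolysis, and urea cycle and amino acids thus turned. For the remaining changes the cause was not tested, except that lower filters add genes near 0 by construction. Of 603 values of 201 named genes under the other settings, 422 shifted by less than 1 SD and 1 had another sign. Of 1407 with a library left out, 1321 shifted by less than 1 SD and 24, of 12 genes that were not separated, had another sign, HNF4A and CEBPA among them.

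SR against WT had 0 genes at an adjusted p under 0.05 in all alternatives run. The count of unadjusted p under 0.05 ranged from 641 to 1813 with a library left out. The fit with the replicate block called 0 genes and had 1234 at an unadjusted p under 0.05. With the labelled line as a further term, 0 genes were called and 1767 had an unadjusted p under 0.05. After profile and status were fitted, same-numbered WT and SR libraries of the KRT19-high profile correlated at 0.0117, -0.0134 and -0.0660. The pair at -0.0134 was of different labelled lines, HepG2 WT replicate 2 and Huh7 SR replicate 2. With so few libraries these values cannot decide whether the numbers pair the samples. The study's thresholds, which use the unadjusted p, gave 1180 genes. The interaction had 0 calls under each alternative but one, 788 with no filter, and the cause was not tested. With Huh7 WT replicate 1 or Huh7 SR replicate 1 left out, the interaction could not be fitted. Depth is unknown, and a profile of 2 libraries limits the precision of every value.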
